A study of Mus musculus with 2 samples.

Results

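The 7 genes described here were the Myc family and the reprogramming factors Myc, Mycn, Mycl, Klf4, Klf5, Lin28b and Pou5f1 (also called Oct4), chosen by name and found once each among the 31053 genes measured in both libraries. The libraries were droplet-based 3′ single-cell RNA-seq of wild-type (WT) mouse utricular sensory epithelium, 1 at embryonic day 14 (E14) and 1 at postnatal day 2 (P2). The utricle is a balance organ of the inner ear, and the epithelium had been lifted off with thermolysin and dissociated with Accutase. Both groups shared genotype and treatment and differed in age. Per the study's methods, its wild-type mice were C57BL/6J and of both sexes. There was 1 library per age, so no spread between animals could be measured, no test was possible, and each 95% interval below is exact and covers counting error only.

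Myc, Mycn and Mycl encode basic helix-loop-helix transcription factors that bind DNA with Max and drive growth and ribosome production, while the Mxd proteins compete with them for Max. Klf4 and Klf5 are zinc finger factors of epithelia, and Klf4 with Myc, Sox2 and Oct4 can return differentiated cells to a pluripotent state. Lin28b is an RNA-binding protein that blocks the maturation of let-7 microRNAs, and let-7 in turn represses Lin28b and other growth genes through sites in their 3′ UTRs. In the utricle, hair cells (HCs) are the mechanosensory cells, and supporting cells (SCs) around them can serve as a source of new HCs.

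In the GRCm38 annotation (GENCODE M21), Myc lay on chromosome 15 (61985391 to 61990374, plus strand) and Mycn on chromosome 12 (12936093 to 12941914, minus strand). Mycl lay on chromosome 4 (122995652 to 123002485, plus strand), as did Klf4 (55527143 to 55532466, minus strand). Klf5 was on chromosome 14 (99298691 to 99315036, plus strand), Lin28b on chromosome 10 (45376620 to 45486395, minus strand) and Pou5f1 on chromosome 17 (35506018 to 35510772, plus strand). All 7 are protein coding, with at most 3 to 5 exons per transcript. Pou5f1 was the only one of the 7 that another annotated gene overlapped, the antisense Gm19553, which the files count as well.

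The let-7 microRNAs are shown because they pair with Lin28b. The seed, bases 2 to 8 of the mature strand and in capitals below, was shared by 11 mature microRNAs from 13 loci (RefSeq, GRCm38), among them let-7a on chr13:48538239-48538260 (minus strand), let-7b on chr15:85707325-85707346 (plus strand) and let-7g on chr9:106178846-106178867 (plus strand). The microRNAs themselves were not measured here.
mmu-let-7a-5p: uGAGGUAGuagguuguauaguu
mmu-let-7b-5p: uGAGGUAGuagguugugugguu
mmu-let-7g-5p: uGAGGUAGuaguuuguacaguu

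The match to this seed, CTACCTC, was present in the 3′ UTRs of 1898 of 21016 protein-coding genes (9.03%). Of the 7 genes, Lin28b had 4 matches in its 4445-base 3′ UTR, and the 3′ UTRs of the other 6 had 0. The 4 Lin28b sites are printed with the match in capitals, on the minus strand at chr10:45381022-45381043, chr10:45378648-45378669, chr10:45378476-45378497 and chr10:45377060-45377081 in the order given. The site nearest the stop codon, 36 bases after it, was the one of the 4 followed by an A, the base opposite the first position of let-7.
Lin28b site 1: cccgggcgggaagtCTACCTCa
Lin28b site 2: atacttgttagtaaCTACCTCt
Lin28b site 3: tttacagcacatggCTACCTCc
Lin28b site 4: aatgatggcaccgaCTACCTCt

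The promoters of Mycl (chr4:122995681-122995980, plus strand) and Klf4 (chr4:55532426-55532725, minus strand) are shown because the levels of these genes followed Atoh1 and the immediate early genes, respectively, across clusters. Each window runs from 250 bases before to 50 bases after the transcription start (RefSeq, GRCm38), with E-boxes, CANNTG read on both strands, in capitals. Mycl had 1 E-box, CACCTG, at position -106 from the start. Klf4 had CAGCTG at position -247 and CACGTG, the form known as the Myc E-box, at position -182. Across 32851 promoters, CANNTG was present in 72.3%, CAGCTG in 16.3% and CACGTG in 7.15%, so an E-box of some kind was the usual case. TGANTCA, the AP-1 motif, was in 7.81% of promoters and in neither of these windows.
Mycl promoter: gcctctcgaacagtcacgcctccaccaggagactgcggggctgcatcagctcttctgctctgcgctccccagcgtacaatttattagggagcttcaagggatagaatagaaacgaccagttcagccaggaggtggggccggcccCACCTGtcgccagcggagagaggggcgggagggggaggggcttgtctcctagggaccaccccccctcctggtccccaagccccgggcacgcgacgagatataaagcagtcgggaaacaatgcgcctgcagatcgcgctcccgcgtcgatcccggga
Klf4 promoter: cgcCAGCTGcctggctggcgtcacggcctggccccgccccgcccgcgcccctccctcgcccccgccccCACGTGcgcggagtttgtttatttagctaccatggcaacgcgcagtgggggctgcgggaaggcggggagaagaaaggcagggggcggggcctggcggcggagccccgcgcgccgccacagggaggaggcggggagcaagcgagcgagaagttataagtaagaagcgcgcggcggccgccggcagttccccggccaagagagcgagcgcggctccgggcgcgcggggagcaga

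The deposited matrices held 15636 cell barcodes with 122892080 UMIs (unique molecular identifiers, counted transcripts) at E14 and 6251 with 57003553 at P2. Filters and the removal of likely doublets left 10138 and 3877 cells in 27 and 22 clusters, and 10 kept barcodes occurred in both libraries. Clusters were named from lists of known markers, and the 7 genes were kept out of the clustering. E14 gave 156 HC-like cells (1 cluster), 936 SC-like cells (4 clusters), 1550 nonsensory epithelial-like cells, 3776 mesenchymal cell-like cells, 390 glial-like cells and smaller classes, whereas P2 gave 719 HC-like cells (5 clusters), 1030 SC-like cells (4 clusters), 170 nonsensory epithelial-like cells and 35 mesenchymal cell-like cells. Unnamed clusters held 27.4% of the E14 cells and 49.6% of the P2 cells, and only 10 of the 27 E14 clusters were epithelial (an Epcam UMI in at least 70% of their cells), against 21 of 22 at P2, so the label of sensory epithelium described the P2 library more closely. Levels are given as CPM, meaning counts for each 1000000 UMIs summed over the class, which compare 1 gene across cells but not 1 gene with another, because 3′ tags are not scaled by length. Shares of cells with a UMI were taken after each cell was thinned to 4000 UMIs, and cells below that depth were left out.

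The 7 genes fell into different patterns. Mycl was highest in HC-like cells at both ages, and Klf5 in SC-like cells among the epithelial classes. Klf4 was high in SC-like, nonsensory and glial-like cells, Myc in several non-epithelial classes at E14, and Mycn in SC-like and endothelial-like cells at E14. Lin28b was sparse and Pou5f1 was close to absent.

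**Figure D1:**
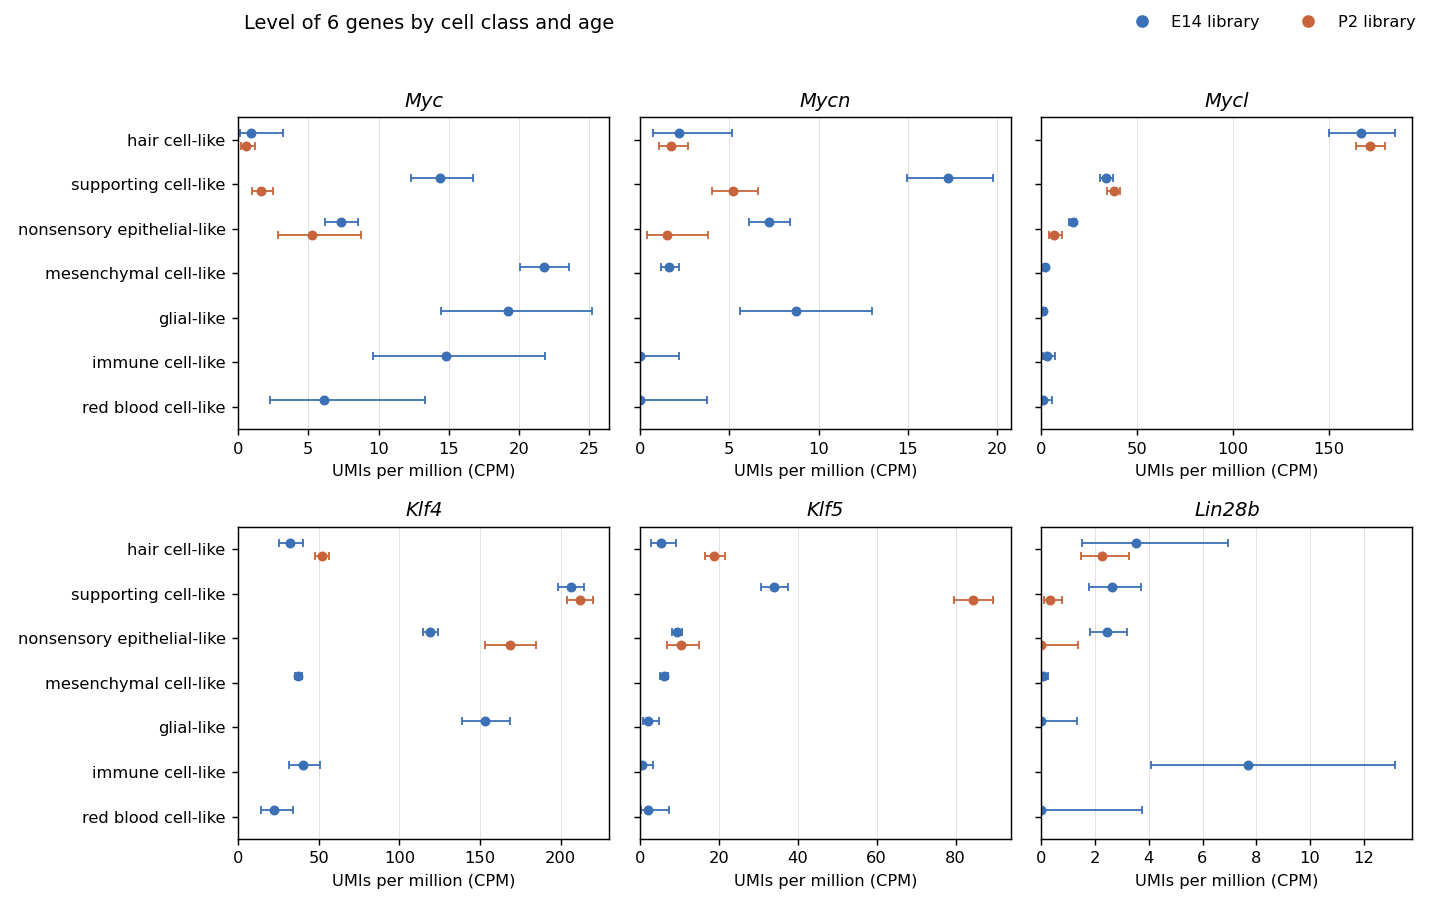
Summed CPM of 6 genes in 7 cell classes at E14 (blue) and P2 (orange), with exact 95% Poisson intervals as error bars, 1 library per age. Mycl is highest in HC-like cells (167 and 172 CPM), Klf4 and Klf5 are highest in SC-like cells among the epithelial classes, and endothelial-like, pericyte-like, melanocyte-like and P2 mesenchymal cell-like cells are left out because few cells had been kept.

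Myc was highest outside the epithelium at E14. The mesenchymal cell-like cells had 21.8 CPM (95% interval 20.1 to 23.5, 626 UMIs) and held 48.9% of all Myc UMIs of the kept E14 cells, while making up 37.2% of those cells. Endothelial-like cells had 21.1 CPM (19 UMIs), glial-like cells 19.2 CPM (53 UMIs) and immune cell-like cells 14.8 CPM (25 UMIs), neighbours whose intervals overlapped. A small pericyte-like cluster of 56 cells had 49.4 CPM from 10 UMIs (23.7 to 90.9). Within the E14 epithelium, SC-like cells had 14.4 CPM (12.3 to 16.7, 170 UMIs), nonsensory epithelial-like cells 7.29 CPM (6.20 to 8.52, 159 UMIs) and HC-like cells 0.883 CPM (0.107 to 3.19, 2 UMIs). The SC-like level was 0.660 times that of the mesenchymal cell-like cells (0.554 to 0.783) and 1.97 times that of the nonsensory epithelial-like cells. After thinning, 33 of 631 SC-like cells (5.23%) and 0 of 155 HC-like cells had a Myc UMI, where a floor of 3 counts comes to 1.94% and the exact interval reaches 2.35%. Before thinning, 2 of 156 HC-like cells had one. The immune, endothelial and red blood cell-like cells pooled served as a background class with a median depth of 4012 UMIs. Its share was 3.11% for Myc, and the 2.40% of the nonsensory epithelial-like cells was not above it. The class holds endothelial-like and immune cell-like cells with higher Myc CPM than the nonsensory ones, so this is no floor of detection.

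At P2, Myc was low in the sensory classes. The SC-like cells had 1.60 CPM (0.993 to 2.45, 21 UMIs), the HC-like cells 0.584 CPM (0.235 to 1.20, 7 UMIs) and the nonsensory epithelial-like cells 5.23 CPM (2.86 to 8.78, 14 UMIs). In SC-like cells, the P2 level was thus 0.112 times the E14 level (0.0674 to 0.176), so that E14 was 8.95 times as high. The nonsensory ratio was 0.717, with an interval of 0.383 to 1.24 that includes no difference. The highest P2 cluster was an unnamed epithelial cluster led by Spon1 and Igfbp6, with 8.69 CPM (5.86 to 12.4, 30 UMIs), a level that overlapped that of the E14 nonsensory class. SC-like cells left after removal of the cycling cells gave a ratio of 0.119, so the difference was of the same size without them. The SC-like class was made of different clusters at the 2 ages, led at E14 by Tectb, by Zpld1, by Dlk1 with mitotic genes and by Nts, and at P2 by Gjb6, by Tectb, by 1500015O10Rik and by a shallow Fabp7 and Tectb cluster.

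Mycn, which is best known from neural and progenitor tissues, was highest in the SC-like class. At E14, SC-like cells had 17.2 CPM (14.9 to 19.8, 204 UMIs) and held 42.4% of the Mycn UMIs from 9.23% of the cells. Endothelial-like cells followed with 12.2 CPM (6.09 to 21.8, 11 UMIs), an interval that overlapped the SC-like one, and glial-like cells with 8.71 CPM (24 UMIs). Nonsensory epithelial-like cells had 7.2 CPM (6.12 to 8.42, 157 UMIs), HC-like cells 2.21 CPM (5 UMIs) and mesenchymal cell-like cells 1.63 CPM (47 UMIs), and the immune and red blood cell-like cells had 0 UMIs. The order of SC-like and mesenchymal cell-like cells was thus opposite for Mycn and Myc, since the SC-like level of Mycn was 10.5 times the mesenchymal one (7.65 to 14.8). The nonsensory cluster led by Prss56 and Mt3 had 13.3 CPM and the Zpld1-led SC-like cluster 13.7 CPM, so the classes overlapped at the level of clusters. Of 631 thinned SC-like cells, 7.13% had a Mycn UMI, against 1.78% in the background class, whose UMIs were all in its endothelial-like cells (4 of 36, 11.1%). Both genes were seen in the same cell in 3 of the 45 thinned SC-like cells with a Mycn UMI.

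At P2, the SC-like level of Mycn was 5.19 CPM (4.03 to 6.58, 68 UMIs), or 0.301 times that at E14 (0.226 to 0.398). The Tectb-led SC-like cluster had the highest level at 10.3 CPM (28 UMIs), 2.68 times that of the other SC-like clusters (1.59 to 4.45). With the Tectb-led clusters alone at each age, the ratio of P2 to E14 was 0.531 for Mycn, within 2-fold, and 0.0484 for Myc. HC-like cells had 1.75 CPM at P2 (21 UMIs), 0.795 times the E14 level with an interval of 0.292 to 2.70 that includes no difference.

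Mycl was highest in HC-like cells at both ages. The E14 HC-like cells had 167 CPM (150 to 185, 378 UMIs), SC-like cells 34 CPM (30.7 to 37.4, 402 UMIs) and nonsensory epithelial-like cells 16.2 CPM (354 UMIs), whereas mesenchymal cell-like cells had 2.05 CPM (59 UMIs), glial-like cells 0.726 CPM (2 UMIs) and endothelial-like cells 0. These HC-like cells were 1.54% of the kept cells and carried 29.9% of the Mycl UMIs. The SC-like cells carried 31.8% and the nonsensory epithelial-like cells 28.0%. At P2, HC-like cells had 172 CPM (164 to 179, 2056 UMIs), SC-like cells 37.7 CPM (34.4 to 41.1, 493 UMIs) and nonsensory epithelial-like cells 6.73 CPM (18 UMIs). HC-like cells were 18.5% of the kept P2 cells and carried 73.0% of the Mycl UMIs. A Mycl UMI was present in 73 of 155 thinned HC-like cells at E14 (47.1%, 39.0 to 55.3) and 287 of 716 at P2 (40.1%, 36.5 to 43.8), against 0.889% of the background class.

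The level of Mycl in HC-like cells was 4.91 times that in SC-like cells at E14 (4.26 to 5.67) and 4.56 times at P2 (4.13 to 5.04). Between ages the HC-like levels could not be told apart, at a ratio of P2 to E14 of 1.03 (0.922 to 1.15), nor could the SC-like levels, at 1.11 (0.970 to 1.27). The SC-like ratio depended on the clusters compared, since it was 1.48 without the Zpld1-led E14 cluster and 1.68 with the Tectb-led clusters alone. In nonsensory epithelial-like cells the P2 level was 0.414 times the E14 level (0.243 to 0.664). Outside the Sfrp5 and Wnt3-led cluster, the E14 nonsensory level was 8.94 CPM (7.51 to 10.6), against 6.73 CPM at P2 (3.99 to 10.6). These intervals overlapped, so this ratio too depended on the clusters compared. Mycl also moved with the UMIs of 19 genes that tissue dissociation is known to induce, such as Fos and Jun. In HC-like cells it was 128 CPM in the lowest tertile of these UMIs and 209 CPM in the highest at E14, and 95.3 and 226 CPM at P2. In SC-like cells it went the other way, with 0.611 times the low-stress level in cells of high stress at E14 (0.465 to 0.797). The part of these genes in the HC-like levels and in the differences between clusters was not tested.

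The level in HC-like cells of P2 was not uniform. The cluster led by Grp and Atoh1 had 267 CPM (251 to 284, 203 cells) and the cluster led by Hsd11b2 256 CPM (221 to 295, 49 cells), a pair whose intervals overlapped. The cluster led by Gal and Nppa had 167 CPM (155 to 179, 256 cells), the cluster led by Ocm and Ighm 50.3 CPM (70 cells) and that led by Spp1 and Scg2 27.4 CPM (141 cells). The first 3 together were 6.01 times the last 2 (4.95 to 7.36), a grouping made after the levels were seen. Atoh1, the transcription factor that starts HC differentiation, stood at 316 and 343 CPM in the Grp-led and Hsd11b2-led clusters, 177 CPM in the Gal-led cluster, and 21.7 and 14.0 CPM in the Ocm-led and Spp1-led clusters. The Grp-led cluster alone gave a ratio of P2 to E14 of 1.60, and the other P2 clusters 0.758. An unnamed shallow P2 cluster of 369 cells led by Ocm and Lbx2, in which 9 HC markers were enriched, had 116 CPM.

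Atoh1 was also the gene whose pattern was most like that of Mycl over the 49 clusters of both libraries (Pearson r 0.896 on log2(CPM + 1)), ahead of Rab15 (r 0.880) and Rnf182 (r 0.878). These are descriptions over clusters that share library and depth. In single cells of P2, 107 of 399 thinned HC-like cells without an Atoh1 UMI had a Mycl UMI (26.8%), against 103 of 183 with 1 Atoh1 UMI (56.3%) and 77 of 134 with 2 or more (57.5%). Within the Grp-led cluster the 3 shares were 52.8%, 68.5% and 61.3%, and within the Gal-led cluster 36.4%, 53.7% and 47.6%, so part of the contrast lay between clusters. In the Hsd11b2-led cluster the shares were 58.8%, 47.1% and 71.4%, in no order with Atoh1. At E14 the shares were 42.7% (35 of 82), 44.1% (15 of 34) and 59.0% (23 of 39). For Myo7a, the unconventional myosin of all HCs, the order at P2 was the other way, with a Mycl UMI in 35.0% of the HC-like cells that had a Myo7a UMI and 44.7% of those that did not.

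**Figure D2:**
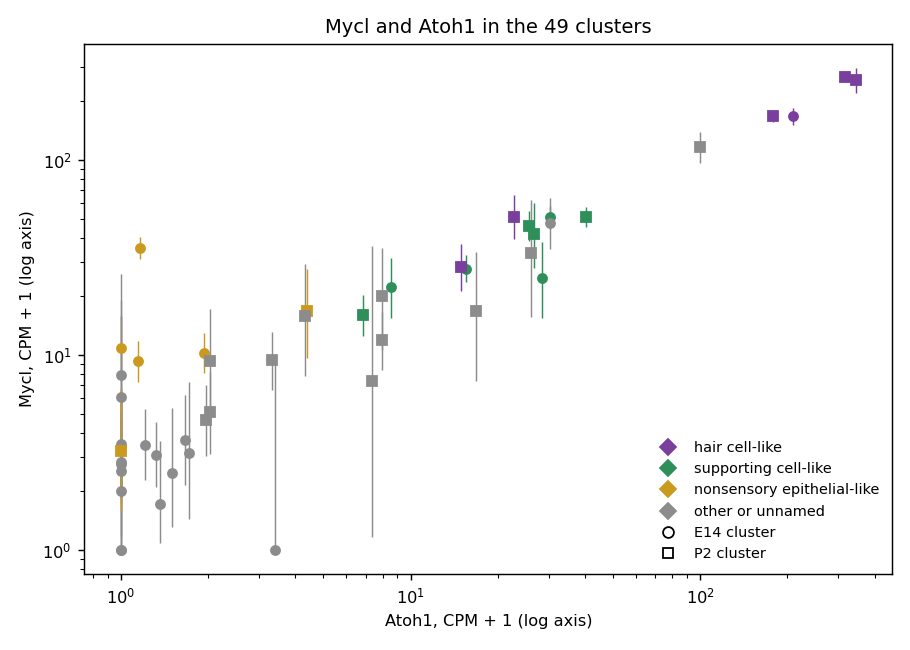
Mycl against Atoh1 as CPM + 1 on log axes, 1 point per cluster for the 27 clusters of E14 and the 22 of P2, with exact 95% Poisson intervals for Mycl. The Grp-led and Hsd11b2-led P2 clusters (267 and 256 CPM of Mycl) lie at the top right, and the Spp1-led P2 HC-like cluster (27.4 CPM) lies far lower on both axes.

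Outside HCs, Mycl was uneven too. At E14 the Zpld1-led SC-like cluster had 50.1 CPM, 1.87 times the Tectb-led one (1.50 to 2.33), and in nonsensory epithelium the Sfrp5 and Wnt3-led cluster had 34.4 CPM, 3.85 times the other nonsensory clusters (3.1 to 4.81). Atoh1 was at 0.160 CPM in that nonsensory cluster, unlike the HC-like clusters with high Mycl. The same cluster had 2.59 times the Myc level of the others (1.87 to 3.58, 13 CPM). At P2 the Gjb6-led SC-like cluster had 50.3 CPM, 3.33 times the 1500015O10Rik-led one (2.52 to 4.46).

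Klf4 was the most widely detected of the 7, with a UMI in every one of the 49 clusters. SC-like cells had 206 CPM at E14 (198 to 215, 2442 UMIs) and 212 CPM at P2 (204 to 220, 2774 UMIs), and the ratio of P2 to E14 was 1.03 (0.972 to 1.08), with both ages at nearly the same level. Without the Zpld1-led E14 cluster, however, the ratio was 0.777, and with the Tectb-led clusters alone it was 0.712. At E14 the next levels were 153 CPM in glial-like cells (422 UMIs), 119 CPM in nonsensory epithelial-like cells (115 to 124, 2600 UMIs), 66.6 CPM in endothelial-like cells (60 UMIs), 40.3 CPM in immune cell-like cells (68 UMIs), 37.1 CPM in mesenchymal cell-like cells (1068 UMIs) and 32.2 CPM in HC-like cells (25.2 to 40.5, 73 UMIs). The last 3 overlapped. At P2, nonsensory epithelial-like cells had 168 CPM (451 UMIs) and HC-like cells 51.9 CPM (47.9 to 56.2, 622 UMIs), which were 1.41 times (1.28 to 1.56) and 1.61 times (1.26 to 2.08) their E14 levels. SC-like cells had 1.73 times the nonsensory level at E14 and 1.26 times at P2, both within 2-fold. HC-like cells had 0.156 times the SC-like level at E14 and 0.245 times at P2. The share of cells with a Klf4 UMI was 44.8% (283 of 631) and 48.1% (310 of 644) in SC-like cells, but 11.1% in the background class, so the 14.2% of E14 HC-like cells, the 11% of mesenchymal cell-like cells and the 10.4% of red blood cell-like cells (7 of 67) cannot be read as expression from shares alone.

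Klf4 moved with the dissociation genes as well. The 3 genes most like it over the 49 clusters were the immediate early genes Egr1 (r 0.839), Nr4a1 (r 0.838) and Fos (r 0.837). When SC-like cells were sorted by the same 19 stress genes, Klf4 was 81.5 CPM in the lowest tertile and 349 CPM in the highest at E14, and 91.8 and 318 CPM at P2. In nonsensory epithelial-like cells these levels were 46.8 and 236 CPM at E14 and 43.7 and 264 CPM at P2, and in HC-like cells 17.9 and 41.3 CPM at E14 and 30.1 and 75.7 CPM at P2. The highest Klf4 level of any cluster, 458 CPM (416 to 502), was in an unnamed P2 cluster of 60 cells led by Sostdc1 and Zpld1, in which the stress genes summed to 20286 CPM. The unnamed P2 clusters together held 41.4% of the Klf4 UMIs, at 159 CPM.

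The age ratios were therefore also taken within fixed bands of stress UMIs. For SC-like cells the ratio of P2 to E14 for Klf4 was 1.08 (0.917 to 1.27) in the low band, 0.969 (0.882 to 1.06) in the middle band and 0.876 (0.811 to 0.947) in the high band. In the low band, HC-like cells had 0.393 times the SC-like Klf4 level at E14 (0.300 to 0.509) and 0.580 times at P2 (0.504 to 0.668). Within this band the 2 classes were not fully matched. At E14 the median HC-like cell held 15 stress UMIs in its highest tertile and the median SC-like cell 22.5 in its lowest. The stress genes summed to 10766 CPM at E14 and 11621 CPM at P2 in SC-like cells and to 2348 and 2666 CPM in HC-like cells, and their part in the difference between these classes was not tested.

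**Figure D3:**
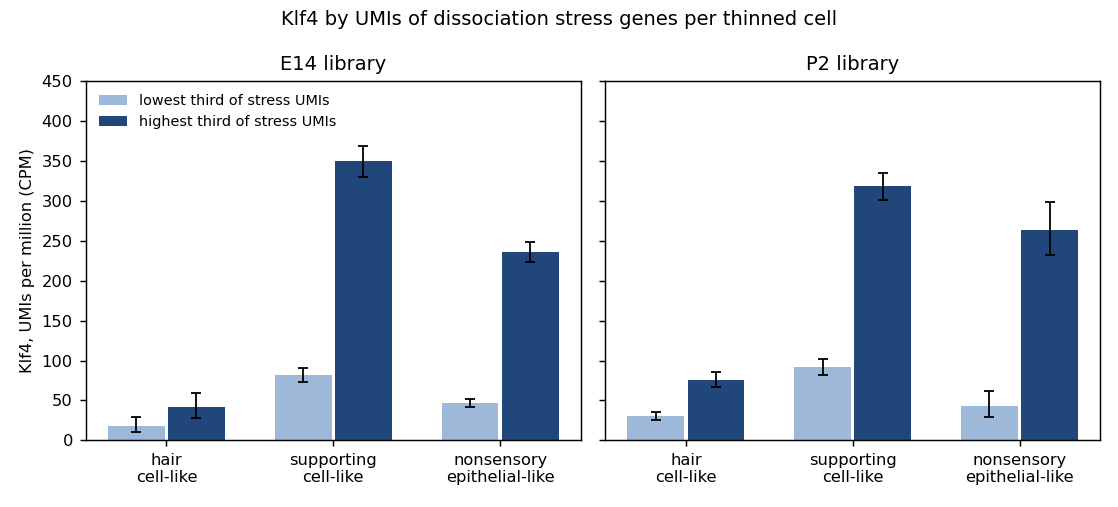
Klf4 in CPM in the lowest and highest tertile of cells by UMIs of the dissociation stress genes, per class at E14 and P2, with exact 95% Poisson intervals. The highest tertile lies above the lowest in each class shown, for example 349 against 81.5 CPM in SC-like cells at E14.

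Among the E14 SC-like clusters, the Tectb-led one had 339 CPM of Klf4 (324 to 355), 4.20 times the Zpld1-led one at 80.6 CPM (3.74 to 4.74). Within the low, middle and high stress bands this ratio was 3.94, 3.70 and 3.00, with the lowest bound at 2.46. In the mesenchyme, the Aspn-led cluster had 4.30 times the Klf4 level of the other mesenchymal cell-like clusters and 10.7 times their Klf5 level (7.79 to 14.7). Its stress genes summed to 4815 CPM, the highest of the mesenchymal cell-like clusters (1116 to 3457 CPM in the others), and mesenchymal Klf4 was 11.8 CPM in the lowest and 82.7 CPM in the highest stress tertile, whose part was not tested.

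Klf5 was the gene of the 7 that was higher after birth in both sensory classes. SC-like cells had 34 CPM at E14 (30.8 to 37.5, 403 UMIs) and 84.4 CPM at P2 (79.5 to 89.5, 1105 UMIs), a ratio of 2.48 (2.21 to 2.79). HC-like cells had 5.30 CPM (12 UMIs) and 18.9 CPM (16.5 to 21.5, 226 UMIs), a ratio of 3.56 (2.00 to 7.0). Nonsensory epithelial-like cells had 9.31 CPM (203 UMIs) and 10.5 CPM (28 UMIs), and the ratio of 1.12 had an interval of 0.728 to 1.67. Unnamed P2 clusters led by Penk, Spon1, Dhx58 and Sostdc1 came closest to this class, by 1 to 3 markers, but were not in it. They had 20.8, 18.5, 15.7 and 15.5 CPM of Klf5, above the E14 nonsensory level. The nonsensory ratio thus depended on which clusters were named. The share of SC-like cells with a Klf5 UMI was 12.7% at E14 and 26.7% at P2 (172 of 644), against 0.444% in the background class. The SC-like ratio was 3.26 in the low stress band, 2.31 in the middle band and 2.14 in the high band, and 2.38 in non-cycling cells. It fell within 2-fold without the Zpld1-led E14 cluster (1.92) and with the Tectb-led clusters alone (1.77).

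At P2, the Klf5 level in SC-like cells was 8.07 times that in nonsensory epithelial-like cells (5.55 to 12.2), against 3.66 times at E14. The unnamed clusters led by Penk, Spon1, Dhx58 and Sostdc1, at 15.5 to 20.8 CPM, were outside this nonsensory class. The larger ratio at P2 therefore depended on which clusters were named. The highest levels were in the Gjb6-led SC-like cluster, with 108 CPM (99.5 to 117), and the Tectb-led one, with 89.9 CPM. The 1500015O10Rik-led cluster was lower, at 52.8 CPM, and the Gjb6-led cluster was 2.04 times this level (1.75 to 2.40). Among HC-like clusters, the Hsd11b2-led one stood out with 74.9 CPM, 4.93 times the other HC-like clusters (3.57 to 6.71). Genes most like Klf5 over the clusters were Rnd2 (r 0.844), Peli2 (r 0.828) and Plcd4 (r 0.828). At E14 a Klf4 UMI was found in 67.5% of the SC-like cells with a Klf5 UMI (54 of 80) and 41.6% of those without, whereas at P2 the shares were 47.7% and 48.3%.

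Lin28b, the gene with the let-7 sites printed above, was near the limit of detection. The E14 epithelium had 2.50 CPM (2.01 to 3.06, 92 UMIs), with 3.53 CPM in HC-like cells (8 UMIs), 2.62 CPM in SC-like cells (1.78 to 3.72, 31 UMIs) and 2.43 CPM in nonsensory epithelial-like cells (53 UMIs), values that overlapped. The mesenchymal cell-like cells had 0.0695 CPM (2 UMIs), and the epithelial level was 35.9 times this with a wide interval of 9.67 to 301. The immune cell-like cells had 7.70 CPM (4.10 to 13.2), from 13 UMIs that all lay in the cluster led by Cxcl2 and C1qa. No share of cells can be read as expression for Lin28b, since 0.634% of SC-like cells had a UMI against 1.78% in the background class that holds those immune cells.

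At P2, the epithelium had 0.758 CPM of Lin28b (0.525 to 1.06, 34 UMIs), and 27 of the 34 UMIs of all kept cells were in HC-like cells. The SC-like level was 0.306 CPM (4 UMIs), or 0.117 times that at E14 (0.0299 to 0.330). Nonsensory epithelial-like cells had 0 UMIs at P2 against 53 at E14, a ratio of 0.461 with the P2 class set at a floor of 3 UMIs and an exact upper limit of 0.587. HC-like cells had 2.25 CPM (1.49 to 3.28), 0.638 times the E14 level with an interval of 0.282 to 1.63 that includes no difference. Within the HC-like cells, 25 UMIs were in the Ocm-led and Spp1-led clusters (8.29 CPM) and 2 in the other 3 clusters (0.223 CPM), the reverse of the order for Mycl. With the Tectb-led SC-like clusters alone, the ratio was 0.423, so the size of the SC-like difference depended on which clusters were compared. The genes with the most similar pattern were Atp13a2 (r 0.654), Rnf17 (r 0.617) and Lmln (r 0.617), correlations that rest on 142 UMIs.

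Pou5f1 gave 5 UMIs in the kept cells at each age. In all barcodes there were 10 UMIs at E14 (0.0814 CPM) and 5 at P2, each in a barcode of its own. At this depth no Pou5f1 expression was detectable above single scattered UMIs.

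Set side by side for the SC-like cells, the comparison of ages gave 3 genes of the 6 with enough UMIs that were at least 2-fold lower at P2 (Myc, Mycn and Lin28b) and 1 at least 2-fold higher (Klf5). Over all 14066 genes with at least 10 UMIs in 1 of the groups, 10.7% were at least 2-fold lower and 12.7% at least 2-fold higher. In HC-like cells Klf5 was the one gene past 2-fold, where 9.64% of 13137 genes were higher and 4.49% lower, and Myc had too few UMIs to compare (2 at E14 and 7 at P2). In nonsensory epithelial-like cells Mycn, Mycl and Lin28b were at least 2-fold lower at P2 by size. The background was 11.1% lower and 8.66% higher, and the upper limits of the ratio, 0.542, 0.664 and 0.587, lay within 2-fold. For Mycl, the E14 level outside the Sfrp5 and Wnt3-led cluster was 8.94 CPM, with an interval that overlapped the P2 one. For Mycn, the P2 class held 4 UMIs, and the E14 nonsensory clusters ranged from 2.72 to 13.3 CPM. The unnamed P2 clusters led by Penk, Spon1, Dhx58 and Sostdc1, nearest to this class by markers, had 2.90, 4.35, 4.44 and 2.07 CPM of Mycn. The size of the Mycn ratio thus depended on the clusters compared. Over HC-like and SC-like cells pooled, the ratios were 0.0916 for Myc, 0.240 for Mycn, 1.84 for Mycl, 0.760 for Klf4, 1.80 for Klf5 and 0.447 for Lin28b. In the pool 14.6% of 15080 genes were at least 2-fold higher and 10.5% lower. For 5 of the 6 genes, all but Lin28b, the pooled ratio lay outside the ratios of the 2 classes, and HC-like cells were 719 of 1749 cells of the pool at P2 but 156 of 1092 at E14. Over all kept cells the Klf4 ratio turned to 1.57. Between classes, Myc, Mycn, Klf4 and Klf5 were at least 2-fold lower in HC-like than in SC-like cells at both ages. Over all genes, 22.3% were lower at E14 and 22.1% at P2. In the low stress band the Klf4 ratio was 0.393 at E14 but within 2-fold at P2 (0.580). Mycl was at least 2-fold higher at both ages and Lin28b at P2, where 17.5% of all genes were higher at E14 and 20.7% at P2.

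**Figure D4:**
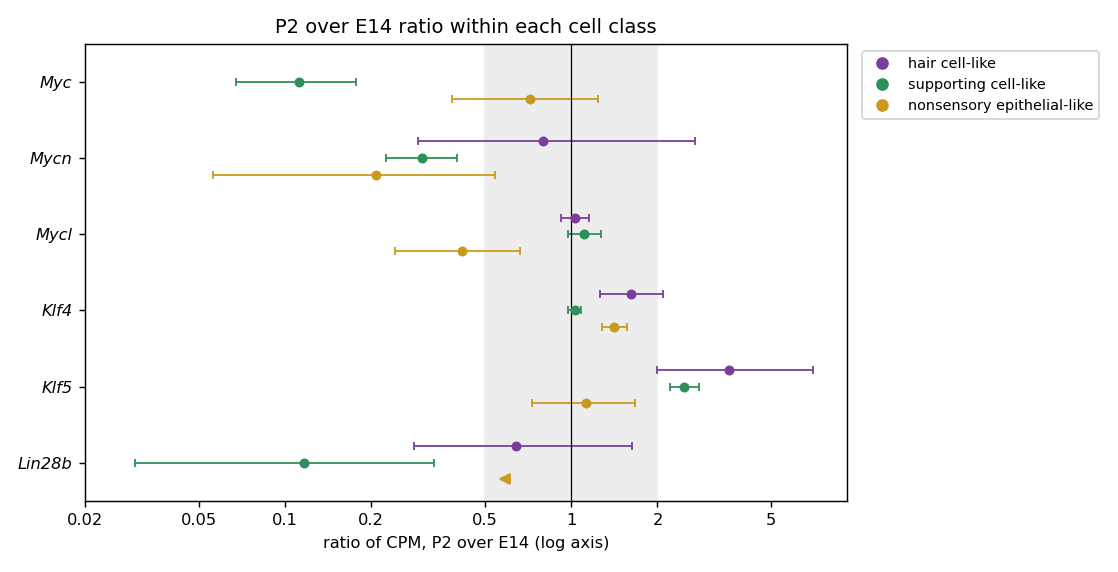
Ratio of the P2 to the E14 level on a log axis for 6 genes in HC-like, SC-like and nonsensory epithelial-like cells, with exact 95% intervals, and the grey band marking ratios within 2-fold. SC-like Myc (0.112) and Mycn (0.301) lie below the band and Klf5 (2.48) above it, Klf4 and Mycl lie inside it in HC-like and SC-like cells, and the triangle marks the exact upper limit (0.587) for Lin28b in nonsensory epithelial-like cells, where the P2 class had 0 UMIs.

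Of 10 partners and antagonists of Myc, 1 was at least 2-fold higher in P2 SC-like cells and 1 lower, a share near the 12.7% and 10.7% over all genes. Summed, they reached 286 CPM in the E14 cells against 364 CPM in the P2 cells, and the median log2 ratio was 0.06, as over all genes tested (0.06). The 4 with the highest levels were Mxd4 (1.61 times), Mxi1 (1.58 times), Mga (1.12 times) and Max, the shared partner (1.55 times). Mxd1, an antagonist linked to differentiation, had a ratio of 2.13 and Mxd3, an antagonist known from dividing cells, 0.0258 (3 UMIs against 105), named here after their values were seen. In HC-like cells 2 of 10 were lower and 0 higher, where 4.49% of all genes were lower and 9.64% higher.

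Of 18 known targets of Myc in ribosome and polyamine synthesis and growth, 5 were at least 2-fold lower in P2 SC-like cells and 0 higher. Over all genes 10.7% were lower and 12.7% higher, and the median log2 ratio was -0.56 for the targets against 0.06 over all genes. Among the 4 with the highest levels, the nucleolar chaperone Npm1 had 0.455 times, nucleolin (Ncl) 0.773 times, Cdk4 0.452 times and lactate dehydrogenase (Ldha) 0.274 times the E14 level. Npm1 was also the gene with the pattern most like that of Myc over the 49 clusters (r 0.831), followed by Csrp2 (r 0.816) and Gm11808 (r 0.816). In HC-like cells, 4 of 18 were lower and 0 higher, with a median of -0.31. Myc and Mycn were near 0 in this class at both ages, while Mycl had 167 CPM at E14 and 172 CPM at P2. The part of these factors in the target levels was not tested. Over all genes of this class 4.49% were lower and 9.64% higher, with a median of 0.03. For Mycn the most similar genes were G430095P16Rik (r 0.714), Gt(ROSA)26Sor (r 0.699) and Paip1 (r 0.671).

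Of the 10 genes of the Lin28 and let-7 axis with enough UMIs, out of 11 found, 3 were at least 2-fold lower in P2 SC-like cells and 0 higher, where 10.7% of all genes were lower and 12.7% higher. The median log2 ratio was -0.12 against 0.06 over all genes. Dicer1, which cuts let-7 precursors and has 0 seed matches, had a ratio of 1.38, and the RNA-binding proteins Igf2bp3, Igf2bp2 and Igf2bp1 had 0.673, 0.934 and 0.232. The 3 lower genes were Igf2bp1, Hmga2 (0.0512, 17 UMIs against 300) and Trim71 (0.366), named after their values were seen, which are known let-7 targets. Each had 4 seed matches, and of the other genes found Lin28a and Arid3a had 2, Hmga1, Igf2bp2, Igf2bp3 and Plagl2 1, and Dicer1 and Dis3l2 0. Per kb of 3′ UTR, Igf2bp1 had 0.631 matches, Hmga2 1.33 and Trim71 0.726, against 0 to 0.845 in the other genes found. Whether let-7 had a part in these levels was not tested. In HC-like cells Igf2bp1 was lower as well (0.108) and Hmga1, with 1 seed match, was higher (4.13). Trim71 was higher in HC-like than in SC-like cells at both ages, 6.22 times at E14 and 12.6 times at P2, as was Lin28b at P2 (7.38 times).

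Of 11 other Klf genes, 2 were at least 2-fold higher in P2 SC-like cells and 1 lower, near the 12.7% and 10.7% over all genes. The median log2 ratio was 0.72 against 0.06 over all genes. The 4 with the highest levels were Klf6 (0.762 times), Klf13 (1.62 times), Klf3 (1.88 times) and Klf9 (2.90 times). The other 2 past 2-fold were Klf10 (2.31) and Klf2 (0.242). In HC-like cells 5 of 10 were higher and 0 lower, where 9.64% of all genes were higher and 4.49% lower. Among those 5, Klf3 had 2.43 times and Klf7 2.37 times the E14 level. Klf6, an injury-responsive relative of Klf4, was 0.0310 times as high in HC-like as in SC-like cells at E14 and 0.0928 times at P2. The stress genes were also lower in HC-like cells, as given for Klf4, and their part in the Klf6 contrast was not tested. Of 15 other pluripotency factors, 4 had enough UMIs to compare in SC-like cells, and of these Tbx3 was lower (0.413) and Sox2, which SCs are known to express, had 1.17 times the E14 level.

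Cycling cells were those with at least 5 UMIs of 45 S phase and G2/M phase genes per thinned cell, and non-cycling cells those with at most 1. At E14, 362 of 2230 thinned epithelial cells were cycling (16.2%, 14.7 to 17.8), and 60 cells with 4 such UMIs lay just under the limit. By class, 176 of 631 SC-like cells were cycling (27.9%), 181 of 1418 nonsensory epithelial-like cells (12.8%) and 3 of 155 HC-like cells. At P2, 48 of 2557 were cycling (1.88%), 45 of them in unnamed clusters, and 0 of 644 SC-like cells were, where a floor of 3 counts comes to 0.466% and the exact interval reaches 0.571%. Before thinning, cycling E14 cells held a median of 15593.5 UMIs and non-cycling cells 10092.

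In the E14 epithelium no gene of the 6 with enough UMIs was 2-fold higher or lower in cycling cells, where 3.46% of 14689 genes were higher and 11.8% lower, and the median log2 ratio of all genes was -0.20. Myc was 11.9 CPM in cycling and 7.92 CPM in non-cycling cells (100 and 152 UMIs), a ratio of 1.50 (1.15 to 1.94). Mycn had 1.13 times (0.874 to 1.45), Mycl 0.786 times (0.670 to 0.919), Klf4 0.734 times, Klf5 1.18 times and Lin28b 0.658 times (0.344 to 1.19) the non-cycling level. By phase, Myc was 8.79 CPM (5.74 to 12.9) in the 148 cells with more S phase UMIs and 13.4 CPM (10.3 to 17.1) in the 200 cells with more G2/M UMIs, and these intervals overlapped.

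For Myc the ratio differed in size between classes. In nonsensory epithelial-like cells, cycling cells had 11.6 CPM and non-cycling cells 5.25 CPM, a ratio of 2.20 (1.51 to 3.21). In SC-like cells the ratio was 0.824 (0.559 to 1.20), and the intervals of these 2 ratios did not overlap. In the SC-like class 5.61% of 12295 genes were at least 2-fold higher in cycling cells and 3.62% lower, and none of the 6 genes was. The gap between classes was not robust to cluster or stress, however. The mitotic, Dlk1-led SC-like cluster had 5.51 CPM of Myc (2.38 to 10.9), below the Tectb-led cluster at 15.2 CPM (12.1 to 18.9) and the Zpld1-led one at 15.6 CPM (12.0 to 20), and without it the SC-like ratio was 1.10 (0.727 to 1.64). In nonsensory epithelium the Sfrp5 and Wnt3-led cluster had both the most Myc and the most phase UMIs (1716 CPM against 503 to 1031 CPM in the others). The ratio was 1.43 within this cluster (0.835 to 2.50) and 2.04 without it (1.11 to 3.61). Myc was also 9.19 CPM in the lowest and 3.53 CPM in the highest stress tertile of the nonsensory class, and within the low, middle and high stress bands the ratio was 1.49 (0.914 to 2.44), 3.09 (1.32 to 7.24) and 1.52 (0.172 to 6.37). These splits were chosen after the values were seen. For Mycn, the ratio was 1.06 in nonsensory epithelial-like cells and 0.868 (0.623 to 1.20) in SC-like cells. At P2 the counts were too low to compare, with 2 Myc UMIs and 6 Mycn UMIs in 48 cycling cells.

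Klf4 was lower in cycling cells of both classes, 0.779 times in SC-like cells (0.707 to 0.856) and 0.490 times in nonsensory epithelial-like cells (0.434 to 0.552). In the nonsensory class 11.7% of genes were at least 2-fold lower and 3.84% higher, and Klf4 and Lin28b were among the lower and Myc among the higher, though the Lin28b ratio of 0.496 (7 UMIs against 35) had an interval of 0.186 to 1.13 that includes no difference. The stress genes summed to 7983 CPM in cycling and 11312 CPM in non-cycling epithelium and to 7079 and 12230 CPM in the nonsensory class, where 8 of 19 were at least 2-fold lower. Within the low, middle and high stress bands of the nonsensory class, the Klf4 ratio was 0.802 (0.649 to 0.987), 0.669 (0.527 to 0.842) and 1.13 (0.895 to 1.41, 14 cycling cells), so it moved within 2-fold and lost its direction in the high band. It was 0.366 within the Sfrp5 and Wnt3-led cluster and 0.706 without it, and 0.933 in SC-like cells without the Dlk1-led cluster (0.839 to 1.04). Mycl and Klf5 stayed within 2-fold in SC-like and nonsensory epithelial-like cells.

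**Figure D5:**
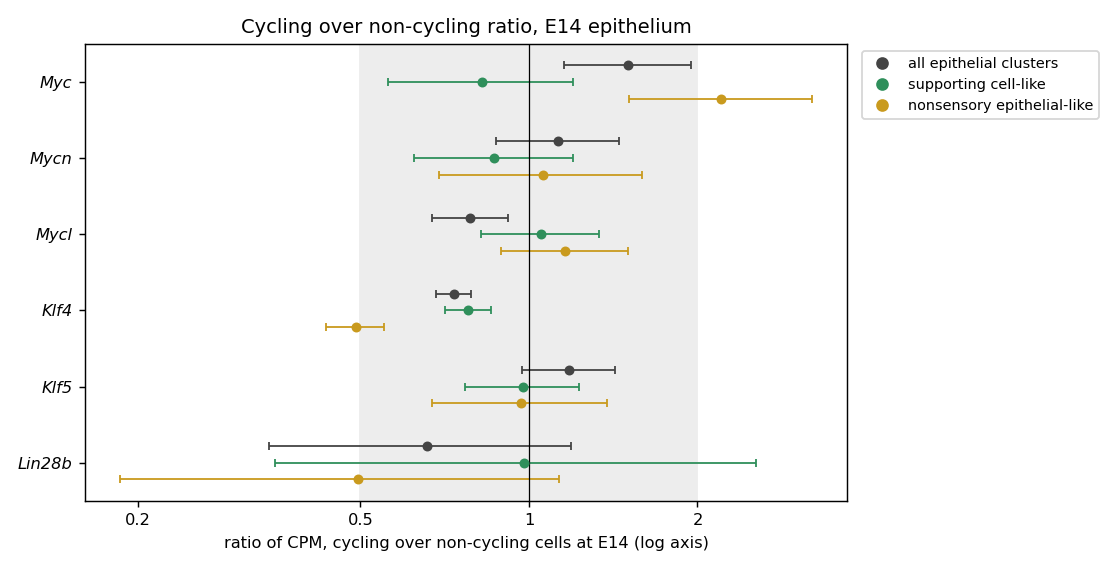
Ratio of the level in cycling to that in non-cycling cells at E14 on a log axis for 6 genes in all epithelial clusters, SC-like cells and nonsensory epithelial-like cells, with exact 95% intervals and a grey band for ratios within 2-fold. Myc is 2.20 in nonsensory epithelial-like cells and 0.824 in SC-like cells, and Klf4 lies below 1 in each, before any split by stress or cluster.

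Of the Myc partners and antagonists, 1 of 10 was at least 2-fold higher in the cycling E14 epithelium, where 3.46% of all genes were. That was Mxd3, with 175 UMIs against 9 (44.3 times), named after its value was seen. None of the 18 Myc targets was past 2-fold there, yet their median log2 ratio was 0.34 against -0.20 for all genes. Among other pluripotency factors Esrrb was 0.167 times and Tfcp2l1 0.443 times as high in cycling cells, and 0 of 5 compared were higher. All S phase and G2/M genes were past 2-fold in this comparison, as the definition of cycling fixes. In SC-like cells of P2 against E14, 19 of 20 S phase and 25 of 25 G2/M genes were at least 2-fold lower, where 10.7% of all genes were.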

How the data were processed

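Per the labels, the authors counted the reads with Cell Ranger 3.1.0 and deposited raw UMI counts per gene and cell barcode, 1 matrix per age, with GRCm39 and mm10 both listed as builds. Their own cell annotation was not used here, and Seurat 4.1.1 is named for it. Barcodes under 500 genes or 1000 UMIs, or with over 15% of UMIs from mitochondrial genes, were dropped, and the cells most like simulated doublets were removed (0.8% per 1000 barcodes). The rest were clustered per library with scanpy 1.11.5 in Python 3.11.15 (2000 variable genes without the 7 genes and the gene lists, 30 components, 15 neighbours, Leiden resolution 1). Of 136 marker entries in 13 classes, a cluster needed at least 3 to be called like a cell type, by a rule on marker levels set after the marker tables were seen. Counts were summed per class and compared with exact Poisson and conditional binomial intervals, and shares with exact Clopper-Pearson intervals. Ratios of at least 2-fold with at least 10 UMIs in the higher group were counted as higher or lower by size, not by a test. The ratio step was tested on simulated data. The 7 genes and the 9 gene lists (140 genes, 138 found) were chosen with earlier results of these data known. Named were the 7 genes, the 4 list genes with the highest summed level and, for each gene with at least 100 UMIs, the 3 genes most like it. Gene IDs were matched to GENCODE M21 (30934 of 31053), used for positions and 3′ UTRs.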

Additional observations from a re-analysis of the deposited data

How the results depend on the processing

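No paired analysis was possible because each age had 1 library and the labels give no shared replicate numbers. With 1 library per age, no replicate could be left out either. Of the values of the main comparisons recomputed under the alternatives tried, 109 stayed within counting error or, for counts of genes, within 1.5 times, and 35 moved. The main values for HC-like and SC-like cells pooled, P2 over E14, and for cycling over non-cycling E14 epithelium are in the report, and the main counts were 2208 genes higher and 1590 lower with age and 508 higher and 1730 lower with cycling. A stricter cell filter gave pooled ratios of 1.64 for Mycl and 0.682 for Klf4 and a cycling ratio of 0.875 for Klf4. With doublets kept, Klf4 was 0.713 with age and 0.837 with cycling, and 1034 genes were lower in cycling cells. Leiden resolution 0.5 gave 1.61 for Mycl and resolution 2 gave 0.703 for Klf4. The mean over cells in place of the sum gave 0.827 for Klf4 with age, and 0.645 for Klf4 and 1.49 for Klf5 with cycling. A minimum of 50 UMIs left 945 genes lower with age and 932 with cycling, and a minimum of 1 UMI put 1121 genes higher with cycling. With nonsensory clusters added, the age ratios were 0.164 for Myc, 0.329 for Mycn, 2.93 for Mycl, 0.973 for Klf4 and 2.85 for Klf5, with 2410 genes lower. All kept cells gave 0.545 for Mycn, 4.05 for Mycl, 1.57 for Klf4 and 3.57 for Klf5, with 3514 genes higher and 3037 lower. Non-cycling sensory cells alone gave 1.62 for Mycl and 0.720 for Klf4, with 1035 genes lower. Cycling set at 10 or more against 0 phase UMIs gave 0.632 for Klf4, thinning to 2000 UMIs 0.908 for Klf4, and SC-like clusters alone 0.824 for Myc, 0.868 for Mycn and 1.05 for Mycl, with 445 genes lower. The cause of these shifts was not tested. Of the shares of cells with a UMI, 18 moved and 2 did not without thinning or at 2000 UMIs, since 82.1% of E14 HC-like cells had a Mycl UMI without thinning and 26.9% at 2000 UMIs. The values without the Zpld1-led cluster, with Tectb-led or Grp-led clusters alone in non-cycling SC-like cells, and within clusters and stress bands for cycling cells, were alternatives chosen after seeing the data. Of these, 32 values did not move and 24 moved, and 1 turned direction, the cycling ratio of Klf4 in nonsensory epithelial-like cells of high stress (1.13).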
